A study of Caenorhabditis elegans with 5 samples.

Results

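Lysosomal and gut proteases of Caenorhabditis elegans were followed by a name rule that took all aspartyl proteases named asp and a number, all cathepsin B relatives named cpr and a number, and 13 further genes named singly: cpl-1, cpz-1, cpz-2, tag-196, pcp-1 to pcp-5, try-1, nuc-1, lmp-1 and pept-1. The rule found 39 genes among the 19176 features of the count tables. No measured value entered the rule. Besides 18 aspartyl proteases, 8 cathepsin B relatives, 4 cathepsins of the L, Z and F types, 5 prolyl carboxypeptidase relatives and 1 relative of trypsin, the group holds 3 lysosomal or gut genes that are not proteases: nuc-1, lmp-1 and pept-1.

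Lysosomes break down proteins, nucleic acids and lipids that reach them by endocytosis, phagocytosis or autophagy. Aspartyl proteases of the cathepsin D type and cysteine proteases of the cathepsin B, L, Z and F types are made as inactive precursors and work in the acidic lumen. In C. elegans the intestine is the main site of such genes: its cells carry many lysosome-related gut granules, and several of these enzymes are also secreted into the gut lumen, where they digest the bacterial food. The resulting dipeptides and tripeptides are taken up by transporters such as PEPT-1 on the intestinal surface.

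RNA from whole worms of the wild type strain N2 was compared between 2 ages, with 3 libraries of Day 6 adults and 2 libraries of L4 larvae, the last larval stage. The comparison asked how expression changes between larvae and adults past their main egg-laying days. Both ages were kept at 20 °C on E. coli HT115 carrying the empty RNAi vector L4440, with 2 mM IPTG and carbenicillin. Day 6 adults had in addition been on 25 µg/mL FUdR, which blocks DNA synthesis and so prevents offspring, from the L4 stage to the sixth day of adulthood, and L4 larvae had none. Age and FUdR cannot be told apart. Each library came from a large pool of animals, and the study calls the replicates independent. In a whole-worm lysate, fewer cells of a type and less RNA per cell cannot be told apart.

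The libraries held 13043617 to 29247719 counts in Day 6 adults, and 9368922 and 14517986 counts in L4 larvae. Levels are given as CPM, the counts of a gene relative to its library's size, after TMM scaling, in which a factor per library brings most genes to the same level. Log2 CPM correlated across genes with r between 0.958 and 0.971 for pairs of Day 6 libraries and with r = 0.796 for the L4 pair, so the L4 libraries stood apart from each other. The TMM factors were 1.03 to 1.63 in the 3 Day 6 libraries, against 0.294 in L4 replicate 1 and 1.62 in L4 replicate 2. A change is a log2 fold change, Day 6 over L4, with its standard error (SE), and it was called at an adjusted p under 0.05, the p of edgeR's quasi-likelihood test after Benjamini-Hochberg adjustment over 12758 genes. Among these, 1829 rose and 1600 fell in Day 6 adults.

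Of the 39 members, 32 passed the filter on low counts and were tested. In Day 6 adults 14 of the 32 fell, 2 rose and 16 were not called. Over all genes tested, 12.5% were called lower and 14.3% were called higher. The median log2 fold change was -2.49 over the 32 members and 0.08 over all genes tested. A negative log2 fold change was found for 28 of the 32. All 14 that fell did so by more than 5-fold, and 10 of them by more than 10-fold. The same counts over all genes called lower were not computed, so these sizes cannot be read as particular to the members. After TMM scaling, the 3 Day 6 libraries lay below both L4 libraries for 20 members and above both for 3. All genes tested gave 23.4% below and 35.4% above. On unscaled values 16 members lay below and 4 above, and the share over all genes was not computed there.

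By family, 5 of 12 tested aspartyl proteases fell and 1 rose, 4 of 7 cathepsin B relatives fell, 0 of 4 cathepsins L, Z and F were called, 4 of 5 prolyl carboxypeptidase relatives fell and the trypsin relative rose. The family medians of the log2 fold change were -2.79, -3.13, -0.59 and -3.08 for aspartyl proteases, cathepsin B relatives, cathepsins L, Z and F and prolyl carboxypeptidase relatives. Of nuc-1, lmp-1 and pept-1, pept-1 fell.

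**Figure D1:**
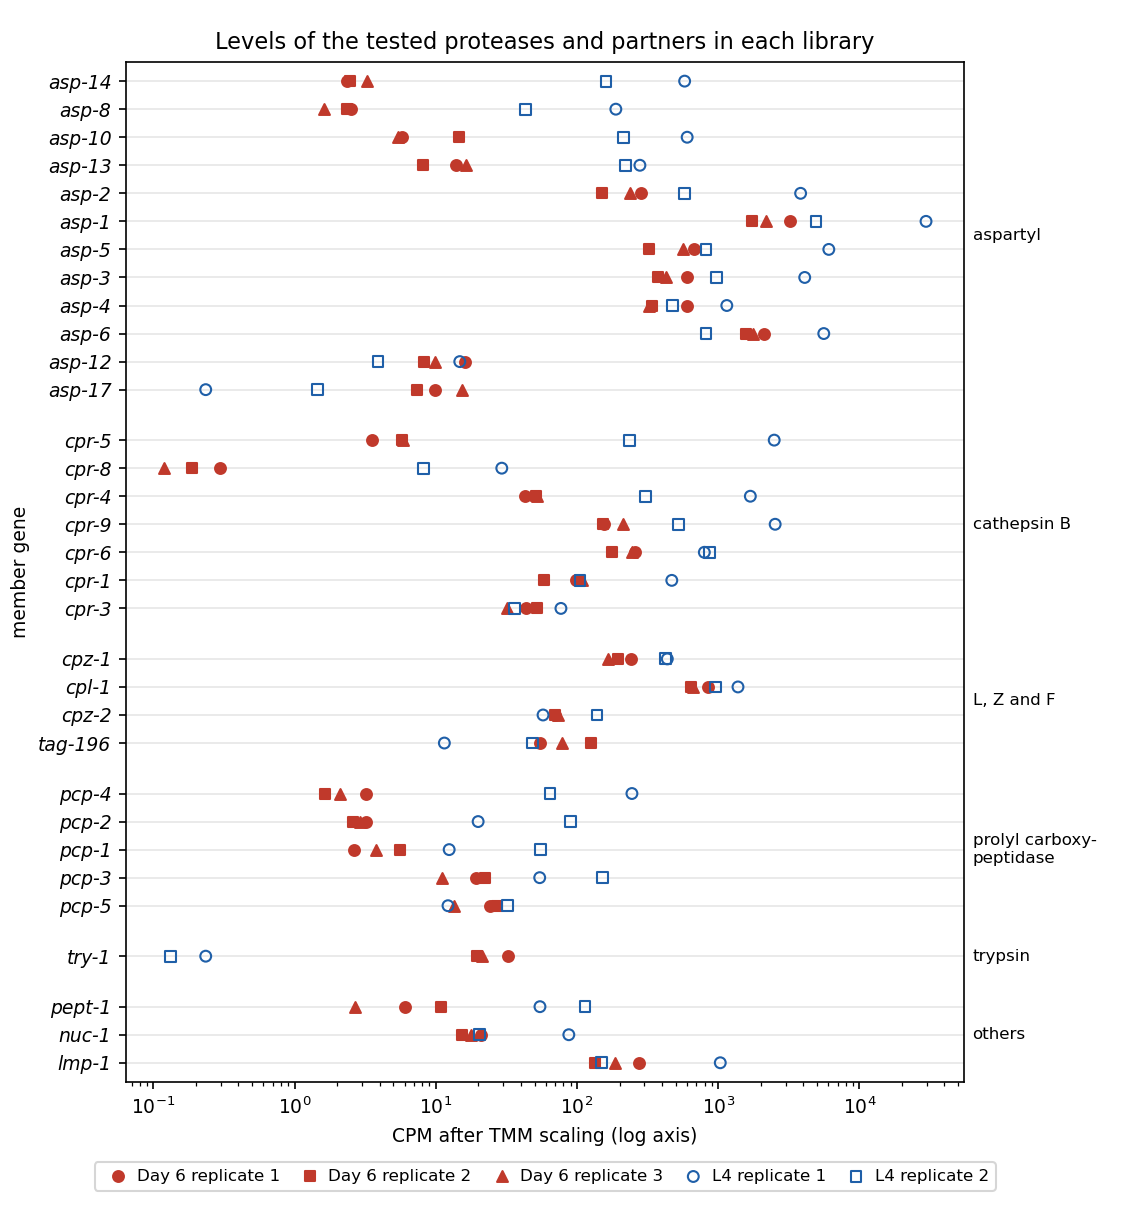
CPM after TMM scaling on a log axis for the 32 tested members, grouped by family, with 1 symbol per library (filled red for 3 Day 6 libraries, open blue for 2 L4 libraries). The filled symbols lie left of the open ones for most members of the upper rows of each family, and the open circles of L4 replicate 1 lie far to the right of the open squares for asp-1, asp-5 and cpr-5.

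The L4 libraries differed from each other with the length of the gene. Across all genes with a length, the median log2 ratio of L4 replicate 1 over L4 replicate 2 was 1.35 in the shortest eighth, of 105 to 644 exon bases, and -1.83 in the longest eighth, of 2996 bases or more. The 24 members under 1500 bases did not lie on this trend as a group, with a median log2 ratio of 2.00. All genes under 1500 bases had a median of 0.39. In the length range of 1156 to 1419 bases, which holds 16 of the tested members, 14 of them were higher in L4 replicate 1, with a median log2 ratio of 2.01, where 627 of all 1384 genes were, with a median of -0.26. Of the 8 members of 1500 bases or more, pcp-4 alone was higher in L4 replicate 1, and the median over the 8 was -1.44, against -1.25 for all genes of that length. After TMM scaling, most aspartyl proteases and cathepsin B relatives had their highest value in L4 replicate 1. pept-1 and the pcp genes other than pcp-4 had theirs in L4 replicate 2. The order of the L4 libraries depended on the scaling. As unscaled shares of the library, asp-1, asp-2, asp-5, asp-6 and cpr-5 were higher in L4 replicate 1, and cpr-4 was nearly equal. The other tested aspartyl proteases and cathepsin B relatives were then higher in L4 replicate 2. With the length trend removed from each library, 14 members fell and 2 rose, where 13.1% of all genes were called lower and 16% higher.

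**Figure D2:**
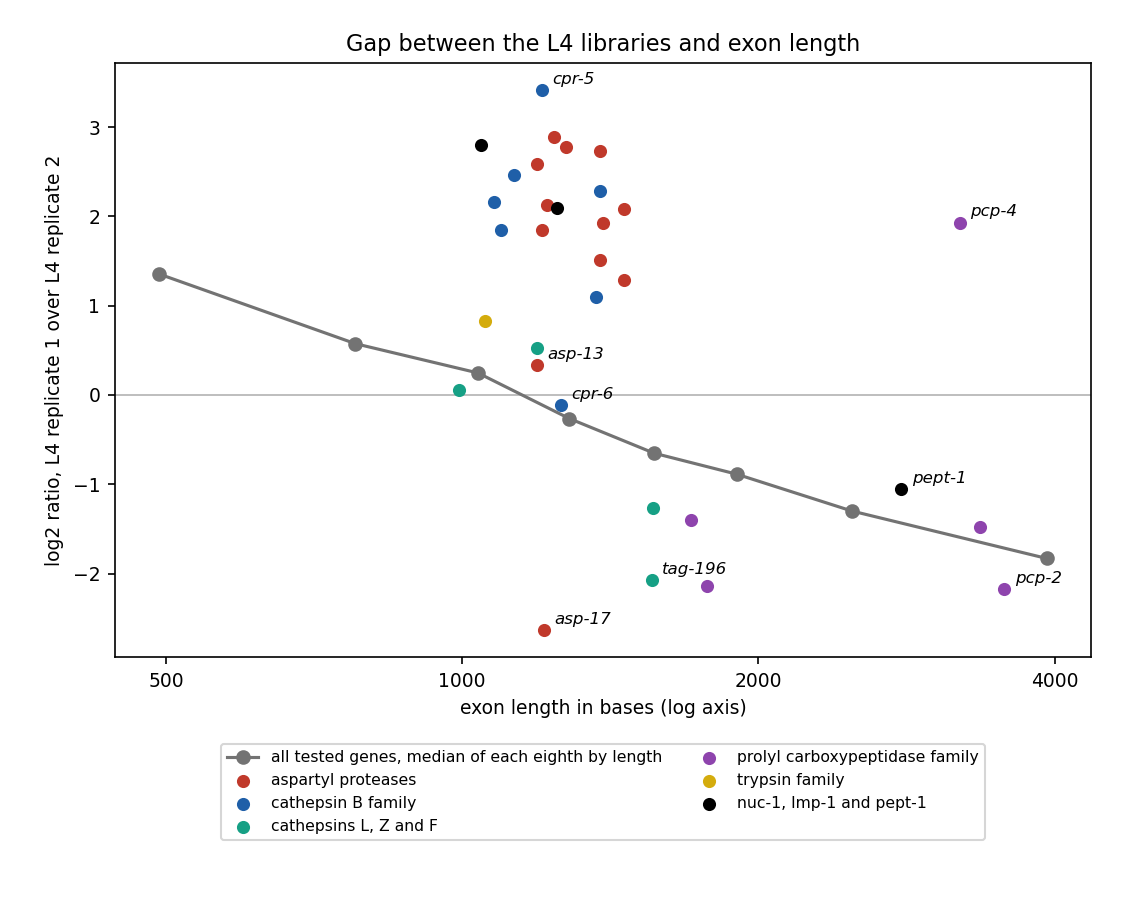
Log2 ratio of L4 replicate 1 over L4 replicate 2, both after TMM scaling, against exon length in bases on a log axis. Each tested member is 1 point coloured by family, and a grey line gives the median of each eighth of all tested genes by length. Most aspartyl and cathepsin B points lie above the grey line, pcp-4 is the single long member above 0, and asp-17 lies lowest.

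Without L4 replicate 1, 16 members fell and 3 rose, where 24.1% of all genes tested were called lower and 26% higher. All 16 members called with 5 libraries were called again in the same direction. The additional calls were cpr-6 and cpz-2, which were lower, and asp-12, which was higher. The median over the members was -0.98 without that library. Without L4 replicate 2, 25 members fell and 3 rose, where 24.2% of all genes were called lower and 36.5% higher. Leaving out a Day 6 library gave 1 higher member each time. Without Day 6 replicate 1, 6 members fell (2.38% of all genes lower, 2.12% higher). Without Day 6 replicate 2, 9 members fell (4.14% lower, 3.99% higher), and without Day 6 replicate 3, 6 members fell (2.49% lower, 1.94% higher). Scaling by library size alone, which leaves every value as a share of its library, gave 8 lower and 1 higher, where 1.37% of all genes were called lower and 1.20% higher. The calls of asp-13, asp-17, cpr-8, cpr-9, pcp-1, pcp-2, pcp-3 and pept-1 were lost there, and asp-1 was called lower. The direction of the 16 called members was the same in all 18 alternatives tried. In every alternative that kept both L4 libraries, 5 of them passed the test, namely asp-8, asp-10, asp-14, pcp-4 and try-1.

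The replicate numbers can be read as pairs, since the growth notes say that each cohort was split between an L4 harvest and further ageing, and the study prepared samples of a replicate together. The titles and the library names give different numbers for L4 larvae, so the pairs are uncertain. With the replicate number as a block, 9 members fell and 1 rose under either numbering. The block by title numbers left 5.06% of all genes called lower and 6.40% higher, and the block by library-name numbers left 2.81% lower and 3.23% higher. The same 6 calls were lost under both numberings, those of asp-2, asp-17, cpr-4, cpr-9, pcp-1 and pcp-3.

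**Figure D3:**
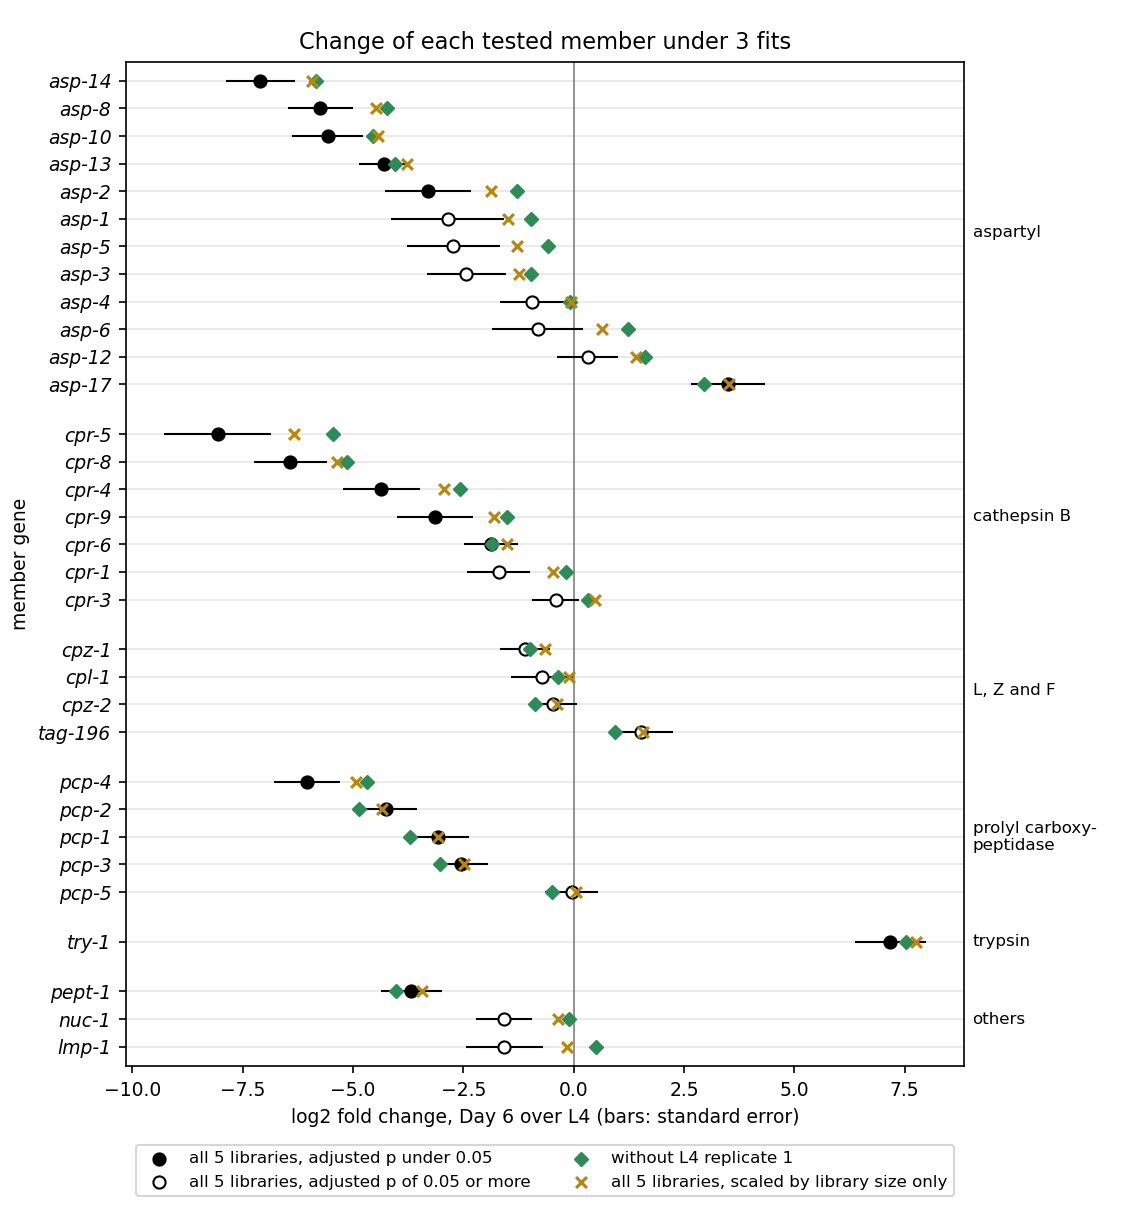
Log2 fold change, Day 6 over L4, of the 32 tested members, with black circles and SE bars for all 5 libraries (filled where the adjusted p was under 0.05), green diamonds without L4 replicate 1 and brown crosses with scaling by library size only. Diamonds and crosses keep the side of 0 for all filled circles, while asp-6, cpr-3, lmp-1 and pcp-5 have symbols on both sides.

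Among the aspartyl proteases, asp-14 had the lowest log2 fold change. It had 2.35, 2.45 and 3.27 CPM in Day 6 replicates 1 to 3, against 578 and 160 CPM in L4 replicates 1 and 2. The groups were far apart, and the Day 6 libraries lay close together. The log2 fold change was -7.10 (SE 0.788, adjusted p = 0.00354), which is a level 137-fold lower in Day 6 adults. It was -5.83 without L4 replicate 1, -7.75 without L4 replicate 2 and -5.94 with scaling by library size only. asp-14 lies on the X chromosome, at 6444185 to 6446664 of the WBcel235 assembly.

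asp-8 had 2.49, 2.35 and 1.61 CPM in Day 6 adults, against 188 and 43.3 CPM in L4 larvae. Its groups did not overlap, and it fell by 5.74 on the log2 scale (SE 0.744, adjusted p = 0.00421). Its log2 fold change was -4.23 without L4 replicate 1, -6.42 without L4 replicate 2 and -4.48 with library size scaling. asp-10, also named hrg-7, encodes a protease-like protein that the worm intestine secretes and that takes part in signalling of heme status between tissues. It had 5.73, 14.5 and 5.35 CPM in Day 6 adults, against 603 and 212 CPM in L4 larvae. Day 6 replicate 2 was the highest of its group and still far below L4 larvae, and asp-10 fell by 5.57 (SE 0.809, adjusted p = 0.00529), 47.6-fold. For asp-10 it was -4.54 on the log2 scale without L4 replicate 1, -6.22 without Day 6 replicate 2 and -4.42 with library size scaling.

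After TMM scaling, asp-13 was the called aspartyl protease whose L4 libraries were closest. It had 13.8, 8.05 and 16.5 CPM in Day 6 adults, against 279 and 221 CPM in L4 larvae, and fell by 4.29 (SE 0.569, adjusted p = 0.00441), 19.5-fold. Its gap of 0.34 on the log2 scale between the TMM-scaled L4 libraries was small beside this change. Unscaled, asp-13 had 14.3, 13.1 and 20.6 CPM in Day 6 adults, against 81.9 and 357 CPM in L4 larvae. The log2 ratio of L4 replicate 1 over L4 replicate 2 was then -2.12. With library size scaling the log2 fold change was -3.78 (adjusted p = 0.0570), so the call was lost.

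asp-2 had the highest level per length among the aspartyl proteases that fell, with means of 162 CPM per kb in Day 6 adults and 1596 CPM per kb in L4 larvae. It had 285, 149 and 238 CPM in Day 6 adults, against 3833 and 575 CPM in L4 larvae. The groups did not overlap, but L4 replicate 2 was nearer to the Day 6 libraries than to L4 replicate 1. It fell by 3.3 (SE 0.977, adjusted p = 0.0423). Its log2 fold change was -1.28 without L4 replicate 1, -4.09 without L4 replicate 2 and -1.88 with library size scaling. Exons of asp-2 overlap a neighbour on the opposite strand, as do exons of asp-4, asp-10 and cpz-2, and whether reads of such pairs were told apart is not stated. With the replicate block the adjusted p of asp-2 was 0.299 with the title numbers and 0.514 with the library-name numbers.

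asp-17 was the aspartyl protease that rose. It had 299, 157 and 256 counts in Day 6 adults, against 1 and 22 counts in L4 larvae, or 9.91, 7.39 and 15.2 CPM against 0.234 and 1.45 CPM. All Day 6 libraries were above both L4 libraries. The log2 fold change was 3.49 (SE 0.844, adjusted p = 0.0229), 11.2-fold higher in Day 6 adults, and it was 5.49 without L4 replicate 2. With the replicate block its adjusted p was 0.0667 with the title numbers and 0.0915 with the library-name numbers.

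The other 6 tested aspartyl proteases were not called. asp-1 encodes a cathepsin D-like protease of the intestine. It had 3202, 1745 and 2195 CPM in Day 6 adults, against 29630 and 4930 CPM in L4 larvae. The groups did not overlap, and L4 replicate 1 was above L4 replicate 2 by 2.59 on the log2 scale, with a log2 fold change between the ages of -2.86 (SE 1.28, adjusted p = 0.130). As a share of each library the L4 values were close, with 3303, 2844 and 2751 unscaled CPM in Day 6 adults, against 8706 and 7965 in L4 larvae, and asp-1 was called lower on that scale (log2 fold change -1.49, adjusted p = 0.0368).

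asp-5 and asp-3, another cathepsin D-like protease, showed the same layout of libraries. asp-5 had 669, 321 and 567 CPM in Day 6 adults, against 6069 and 818 CPM in L4 larvae (log2 fold change -2.73, SE 1.05, adjusted p = 0.0884). asp-3 had 605, 376 and 425 CPM in Day 6 adults, against 4098 and 971 CPM in L4 larvae (log2 fold change -2.44, SE 0.898, adjusted p = 0.0786). In both, each Day 6 library was below each L4 library. DESeq2 called asp-1, asp-3 and asp-5 lower, with adjusted p of 0.000507, 0.0014 and 0.00146. It called 2763 of 12758 genes lower. Without L4 replicate 1 the log2 fold changes of asp-1, asp-3 and asp-5 were -0.97, -0.98 and -0.58. With the replicate block their adjusted p lay between 0.483 and 0.784 over both numberings.

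asp-4, a cathepsin D-like protease that with asp-3 is required for necrotic death of worm neurons, had 606, 338 and 322 CPM in Day 6 adults, against 1150 and 472 CPM in L4 larvae. Its groups overlapped (log2 fold change -0.94, SE 0.731, adjusted p = 0.354).

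asp-6 changed sign with the scaling and the libraries used. It had 2100, 1573 and 1777 CPM in Day 6 adults, against 5591 and 819 CPM in L4 larvae, so that the Day 6 libraries lay between the L4 libraries. The log2 fold change was -0.82 (SE 1.04, adjusted p = 0.572). As a share of the library it was 2166, 2563 and 2227 unscaled CPM in Day 6 adults, against 1643 and 1323 in L4 larvae, above both L4 libraries in every Day 6 library, with a log2 fold change of 0.65 (adjusted p = 0.258). Without L4 replicate 1 the log2 fold change was 1.23.

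asp-12, the neighbour of asp-6, had 16.04, 8.23 and 9.87 CPM in Day 6 adults, against 14.8 and 3.90 CPM in L4 larvae. After TMM scaling the groups overlapped through L4 replicate 1 (log2 fold change 0.31, SE 0.696, adjusted p = 0.755). Without that library the log2 fold change was 1.62. Unscaled, asp-12 had 16.5, 13.4 and 12.4 CPM in Day 6 adults, against 4.34 and 6.30 CPM in L4 larvae, without overlap. With library size scaling the log2 fold change was 1.41 (adjusted p = 0.405).

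In the cathepsin B family, cpr-5 had the lowest log2 fold change of all members. It had 3.51, 5.79 and 5.89 CPM in Day 6 adults, against 2491 and 234 CPM in L4 larvae. L4 replicate 1 was above L4 replicate 2 by 3.41 on the log2 scale, and both were far above the Day 6 libraries. The log2 fold change was -8.07 (SE 1.21, adjusted p = 0.00569), 269-fold. It was -5.46 without L4 replicate 1, -8.94 without L4 replicate 2 and -6.35 with library size scaling. With the replicate block it was -7.40 by title numbers and -7.03 by library-name numbers.

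cpr-8 starts 565 bases from cpr-5 and is transcribed the other way. It had 9, 4 and 2 counts in Day 6 adults, against 125 and 123 counts in L4 larvae, or 0.298, 0.188 and 0.119 CPM against 29.3 and 8.13 CPM. It fell by 6.43 (SE 0.829, adjusted p = 0.00416), so both genes of the pair were low in all Day 6 libraries. For cpr-8 the log2 fold change was -5.15 without L4 replicate 1, -7.04 without L4 replicate 2 and -5.36 (adjusted p = 0.0569) with library size scaling. The pair lies on chromosome V, with cpr-5 at 1132598 to 1134036 and cpr-8 at 1134602 to 1139182.

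cpr-4 encodes a cathepsin B relative that worms can secrete. It had 42.8, 51.1 and 52.1 CPM in Day 6 adults, against 1688 and 307 CPM in L4 larvae. The Day 6 libraries were nearly equal, and cpr-4 fell by 4.36 (SE 0.864, adjusted p = 0.0125), 20.5-fold. As a share of the library it had 44.2, 83.2 and 65.3 unscaled CPM in Day 6 adults, against 496 in both L4 libraries, and the fall held there (log2 fold change -2.95, adjusted p = 0.0370). It was -2.58 without L4 replicate 1 and -5.11 without L4 replicate 2. With the replicate block the adjusted p was 0.0844 with the title numbers and 0.222 with the library-name numbers.

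cpr-9 had 154, 154 and 213 CPM in Day 6 adults, against 2530 and 521 CPM in L4 larvae. It fell by 3.13 (SE 0.860, adjusted p = 0.0338), 8.78-fold, with groups that did not overlap. Its log2 fold change was -1.51 without L4 replicate 1, -3.86 without L4 replicate 2 and -1.81 (adjusted p = 0.0687) with library size scaling. With the replicate block the adjusted p was 0.257 with the title numbers and 0.496 with the library-name numbers.

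cpr-6 had 257, 178 and 245 CPM in Day 6 adults, against 797 and 862 CPM in L4 larvae. After TMM scaling the L4 libraries were almost the same and every Day 6 library was below them, but the log2 fold change of -1.87 (SE 0.620) had an adjusted p of 0.0581. Without L4 replicate 1 the log2 fold change was -1.85. Unscaled, cpr-6 had 265, 289 and 307 CPM in Day 6 adults, against 234 and 1392 CPM in L4 larvae, so that the groups overlapped. The other tested members of this family were the gut cysteine protease gene cpr-1 and cpr-3. Their log2 fold changes were -1.70 and -0.41 (adjusted p = 0.114 and 0.572), and their groups overlapped after TMM scaling. Unscaled, cpr-1 had 101, 94.4 and 136 CPM in Day 6 adults, against 138 and 170 CPM in L4 larvae, without overlap. The groups of cpr-3 overlapped on that scale too.

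None of the cathepsins L, Z and F was called. cpl-1, the worm cathepsin L, is needed for yolk processing in embryos and for moulting. It had 841, 640 and 666 CPM in Day 6 adults, against 1380 and 962 CPM in L4 larvae, without overlap (log2 fold change -0.71, SE 0.704, adjusted p = 0.467). cpz-1, a cathepsin Z with a role in moulting, was likewise below both L4 libraries in every Day 6 library, with 240, 196.4 and 165 CPM in Day 6 adults, against 436 and 421 CPM in L4 larvae (log2 fold change -1.09, SE 0.566, adjusted p = 0.179). For cpl-1 and cpz-1 this held after TMM scaling only. Unscaled, the Day 6 libraries lay between the L4 libraries, which had 405 and 1554 CPM for cpl-1 and 128 and 679 CPM for cpz-1.

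cpz-2, the other cathepsin Z, had 69.8, 70.2 and 73.0 CPM in Day 6 adults, against 57.4 and 138 CPM in L4 larvae. The Day 6 libraries were nearly equal and lay between the L4 libraries (log2 fold change -0.47, SE 0.535, adjusted p = 0.532). Without L4 replicate 1 the log2 fold change was -0.88. tag-196, the cathepsin F relative, had 54.9, 126 and 78.7 CPM in Day 6 adults, against 11.5 and 48.2 CPM in L4 larvae. After TMM scaling each Day 6 library was above both L4 libraries, the nearest by a small margin (log2 fold change 1.52, SE 0.731, adjusted p = 0.153). Unscaled, tag-196 had 56.6, 205 and 98.6 CPM in Day 6 adults, against 3.38 and 77.9 CPM in L4 larvae, so that the groups overlapped.

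The prolyl carboxypeptidase relatives are serine proteases whose human counterparts cut behind a proline near a protein's end. pcp-4 fell most, with 3.21, 1.65 and 2.08 CPM in Day 6 adults, against 245 and 64.3 CPM in L4 larvae. Its groups were far apart (log2 fold change -6.05, SE 0.751, adjusted p = 0.00405), 66.2-fold. It was -4.70 without L4 replicate 1, -6.69 without L4 replicate 2, -4.93 with library size scaling and -7.16 with the length trend removed.

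pcp-2 had 3.18, 2.59 and 2.91 CPM in Day 6 adults, against 19.9 and 90.0 CPM in L4 larvae, and fell by 4.25 (SE 0.698, adjusted p = 0.00721). pcp-3 lies 1568 bases from pcp-2 on chromosome IV and on the same strand. It had 19.3, 22.3 and 11.1 CPM in Day 6 adults, against 54.4 and 152 CPM in L4 larvae, and fell by 2.55 (SE 0.600, adjusted p = 0.0210). Both neighbours were lower in all Day 6 libraries, with L4 replicate 2 as the higher L4 library. Without L4 replicate 2 the log2 fold changes were -2.77 for pcp-2 and -1.62 for pcp-3. That of pcp-2 was -4.88 without L4 replicate 1, and with the length trend removed that of pcp-3 was -3.2.

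pcp-1 had 2.62, 5.60 and 3.75 CPM in Day 6 adults, against 12.4 and 54.8 CPM in L4 larvae, and fell by 3.08 (SE 0.720, adjusted p = 0.0206). Its log2 fold change was -3.71 without L4 replicate 1 and -1.64 without L4 replicate 2. For pcp-1 the replicate block gave adjusted p of 0.0809 and 0.244 with the title and the library-name numbers, and for pcp-3 it gave 0.166 and 0.207. As shares of the library, the groups of pcp-1 and pcp-3 overlapped. The remaining relative, pcp-5, had 13.4 to 27.1 CPM in Day 6 adults and 12.2 and 32.1 CPM in L4 larvae, with a log2 fold change of -0.05 (SE 0.596, adjusted p = 0.957).

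try-1, the trypsin relative, was almost unread in L4 larvae. It had 979, 413 and 356 counts in Day 6 adults, against 1 and 2 counts in L4 larvae, or 32.4, 19.4 and 21.2 CPM against 0.234 and 0.132 CPM. The ratio of the pooled counts, set against the effective library sizes, was 166, with an exact 95% interval from 56.6 to 804 for counting error only. The log2 fold change was 7.17 (SE 0.807, adjusted p = 0.00354), the highest of all members. The call held under every alternative tried, with log2 fold changes from 6.67 to 7.75.

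pept-1 encodes the intestinal proton-coupled transporter of dipeptides and tripeptides. It had 6.07, 10.96 and 2.68 CPM in Day 6 adults, against 54.6 and 114 CPM in L4 larvae. Its groups did not overlap, and it fell by 3.68 (SE 0.694, adjusted p = 0.0108), 12.8-fold. The log2 fold change was -3.04 without L4 replicate 2, -4.30 without Day 6 replicate 2 and -4.27 with the length trend removed. On the unscaled values L4 replicate 1 overlapped the Day 6 libraries.

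nuc-1, a lysosomal DNase II that digests the DNA of dead cells and of ingested bacteria, and lmp-1, a lysosomal membrane glycoprotein of the LAMP type, were not called. nuc-1 had 15.3 to 20.7 CPM in Day 6 adults and 87.4 and 20.5 CPM in L4 larvae (log2 fold change -1.58, SE 0.638, adjusted p = 0.100). lmp-1 had 135 to 276 CPM in Day 6 adults and 1034 and 148 CPM in L4 larvae (log2 fold change -1.57, SE 0.863, adjusted p = 0.202). For both, L4 replicate 2 lay within the range of the Day 6 libraries and L4 replicate 1 far above it.

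The 7 untested members were 6 aspartyl proteases and cpr-2. asp-7, asp-11 and asp-18 had 0 counts in all 5 libraries, and asp-11 is annotated as a pseudogene. asp-9, asp-15 and asp-16 had 1, 4 and 2 counts in all, each in Day 6 replicate 1, the deepest library. cpr-2 had 10, 2 and 2 counts in Day 6 adults and none in L4 larvae, at least 1.33-fold higher in Day 6 adults if the L4 group is set to a floor of 3 counts.

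Compared per length of exon, asp-1 had the highest level of the members at both ages, with means of 1999 CPM per kb in Day 6 adults and 14509 CPM per kb in L4 larvae. asp-6 came next in Day 6 adults with 1425 CPM per kb, against 2513 CPM per kb in L4 larvae. cpl-1 followed in Day 6 adults with 601 CPM per kb, against 984 CPM per kb in L4 larvae. In L4 larvae asp-5 came next to asp-1, with 419 CPM per kb in Day 6 adults and 2777 CPM per kb in L4 larvae, but L4 replicate 1 carried most of that mean. By mean CPM within an age, asp-1 ranked 49 in Day 6 adults and 19 in L4 larvae among the 12758 genes tested, and 11 of the 32 members in Day 6 adults and 15 in L4 larvae were among the top 5%.

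The members together took a smaller share of all counts in Day 6 adults, with 1.00%, 1.03% and 0.937% in Day 6 replicates 1 to 3, against 1.87% and 2.19% in L4 replicates 1 and 2. These shares do not use the TMM factors. Aspartyl proteases took 0.776%, 0.741% and 0.699% in Day 6 adults, against 1.53% and 1.49% in L4 larvae, and the cathepsin B family took 0.0618%, 0.0812% and 0.0822% in Day 6 adults, against 0.237% and 0.335% in L4 larvae. In both families every Day 6 library lay below both L4 libraries.

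For the cathepsins L, Z and F the shares were 0.124%, 0.168% and 0.123% in Day 6 adults, against 0.0554% and 0.254% in L4 larvae, and so overlapped. The make-up of the group differed too. asp-1 gave 27.6% to 33.0% of the members' counts in Day 6 adults, against 46.6% and 36.4% in L4 larvae, and asp-6 gave 21.6% to 24.9% in Day 6 adults, against 8.80% and 6.04% in L4 larvae. With ribosomal protein and vitellogenin genes left out of the totals, the members took 1.52% to 1.69% in Day 6 adults, against 3.64% and 2.78% in L4 larvae.

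**Figure D4:**
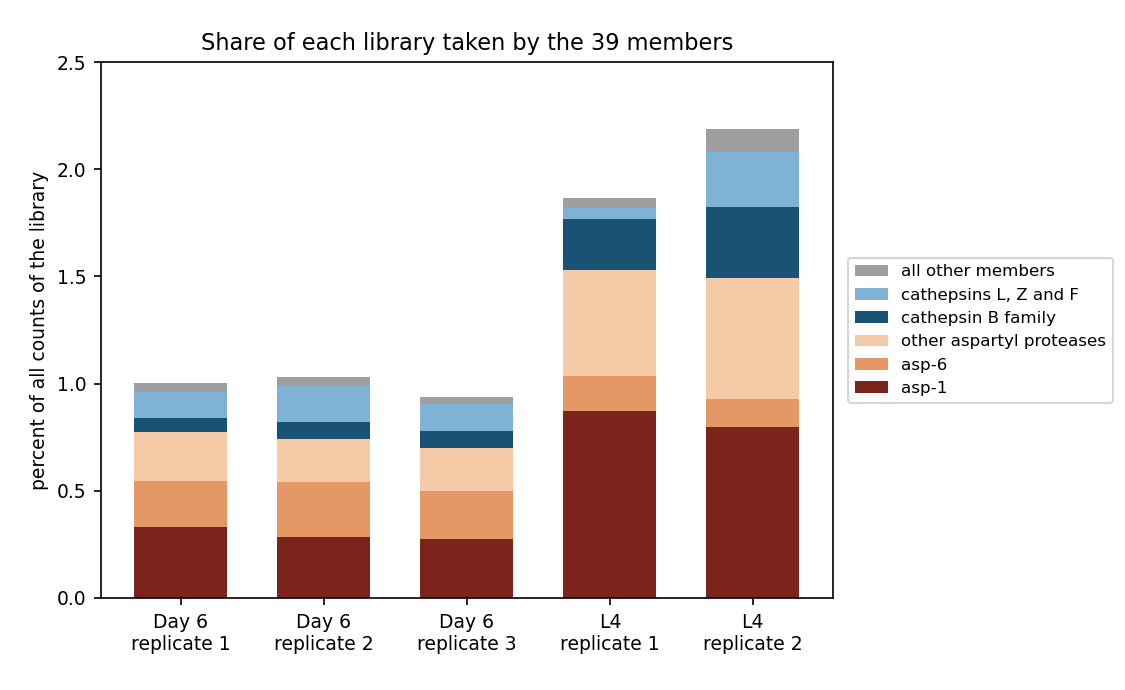
Percent of all counts of each library taken by the 39 members, stacked by family, with asp-1 and asp-6 drawn apart from the other aspartyl proteases (3 Day 6 libraries on the left, 2 L4 libraries on the right). The Day 6 bars end near 1.00% and the L4 bars at 1.87% and 2.19%, and the asp-6 part is thicker in the Day 6 bars.

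The members are clustered in the genome. Of the 39, 25 lie on chromosome V (64.1%), which holds 23.3% of all features matched to the annotation, and 7 lie on X. On chromosome V, asp-6, asp-12, asp-5 and asp-11 follow each other from 8267511 to 8275757, with 272 to 328 bases between neighbours. Within this run asp-6 was at 819 to 5591 CPM over the libraries, asp-12 at 3.90 to 16.04 CPM, asp-5 at 321 to 6069 CPM and asp-11 at 0. Another run, asp-17, asp-16 and asp-15, ends 4708 bases and 1 gene short of asp-1. asp-17 rose, asp-16 and asp-15 had no more than 4 counts, and asp-1 had a negative log2 fold change that was not called. Neighbours in these runs thus differed in level. asp-17 alone was called there, so a difference in direction between neighbours was not shown. cpr-5 and cpr-8 both fell and pcp-2 and pcp-3 both fell, each pair at different levels.

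Genes that work with these enzymes were described from further lists. To set beside each list and the tissue markers below, 12.5% of all genes tested were called lower and 14.3% higher. Of 8 tested protease inhibitors, 2 rose and none fell in Day 6 adults, with a median log2 fold change of 1.09. cpi-1, a cystatin that inhibits cysteine proteases, had 234.9, 213 and 167 CPM in Day 6 adults, against 27.2 and 70.4 CPM in L4 larvae, and rose by 2.07 (adjusted p = 0.0490). The other cystatin, cpi-2, had 194, 152 and 175 CPM in Day 6 adults, against 227 and 75.5 CPM in L4 larvae (log2 fold change 0.20, adjusted p = 0.829). srp-2, a serpin that inhibits serine or cysteine proteases, rose by 2.87 (adjusted p = 0.0158).

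Of 33 other lysosomal hydrolases and membrane proteins, 5 rose and 4 fell, with a median of 0.02. ctns-1, the cystinosin relative that exports cystine, rose by 2.90 (adjusted p = 0.00978), and hex-1, a beta-hexosaminidase, rose by 3.51 (adjusted p = 0.0117). spin-1, a lysosomal transporter of the Spinster family, fell by 2.80 (adjusted p = 0.0188), and asah-2, an acid ceramidase relative, fell by 1.77 (adjusted p = 0.0353). Of 14 genes of lysosome and gut granule formation, 1 rose and none fell: vps-39, a subunit of the HOPS tethering complex, by 3.52 (adjusted p = 0.00956).

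Of 22 further peptidases and peptide transporters, 2 rose and none fell, with a median of 0.37. dpf-2, of the dipeptidyl peptidase IV family, rose by 3.08 (adjusted p = 0.0166). try-5, which in worm males activates sperm, rose by 4.59 (adjusted p = 0.0352) at a mean of 0.816 CPM. The transporters related to pept-1 were not called: the log2 fold change of pept-2 was 1.87 (adjusted p = 0.127) and that of pept-3 was -0.83 (adjusted p = 0.441). Without L4 replicate 1, the median log2 fold change was 1.45 for the inhibitors and -0.21 for the other lysosomal genes. It was 0.13 for the formation genes and 0.10 for the peptidases and transporters, against 0.07 over all genes tested.

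Markers of the intestine were described beside the members. Of 20 intestine markers, 11 fell and none rose, with a median log2 fold change of -1.71, and none was at 0 in all libraries. Their summed level was 1195, 954 and 856 CPM in Day 6 adults, against 14403 and 3699 CPM in L4 larvae. act-5, the actin of the intestinal brush border, fell by 4.72 (adjusted p = 0.0222), and vha-6, the intestinal proton pump subunit, fell by 3.17 (adjusted p = 0.0378). Without L4 replicate 1, the median of the 20 intestine markers was -1.62, against 0.07 over all genes tested. The part of the intestine's RNA in the fall of the members was not tested.

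Of the other tissue lists, 5 of 10 muscle markers and 5 of 9 hypodermis markers fell and 1 hypodermis marker rose. Their median log2 fold changes were -2.29 and -3.58, both lower than the -1.71 of the intestine markers. The summed level of the muscle markers was 2288 to 3241 CPM in Day 6 adults, against 29149 and 8222 CPM in L4 larvae. For hypodermis it was 248 to 434 CPM, against 3640 and 2527 CPM. Of 12 germline and oocyte markers 11 rose, with a median of 5.11 and a summed level of 3925 to 8979.5 CPM in Day 6 adults, against 364 and 250 CPM in L4 larvae. Of 6 vitellogenins, the yolk proteins made in the adult intestine, 1 rose. Their median log2 fold change was 4.59, and it was 3.94 without L4 replicate 1. Of the tested markers, 1 of 5 for pharynx rose, 1 of 5 for sperm fell, and none of 8 for neurons or 2 for coelomocytes was called.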

How the data were processed

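Total RNA of whole worms was depleted of ribosomal RNA and sequenced as strand-specific single reads. The authors aligned reads to WormBase release WS254 with TopHat2 and deposited raw read counts per gene from featureCounts, 1 table per library (versions and the strand setting of the counting are not given in the sources used here). The values were used as deposited, without pooling.

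Counts were scaled by TMM, filtered with filterByExpr (minimum count 10, minimum total 15) and fitted with age alone over all features in edgeR 4.0.16 (R 4.3.3), by the quasi-likelihood test with Benjamini-Hochberg adjustment. The script was tested on simulated data with known changes. Positions, exon lengths and neighbours came from the Ensembl 115 annotation of WBcel235, which matched 19028 of 19176 features. The members and lists were chosen with earlier results of these data known. Every member is named. Values per library are given for called members, the 8 of the highest mean CPM and those whose call changed without L4 replicate 1. From other lists at most 2 called genes per direction, of the highest mean CPM, are named, with cpi-1, cpi-2, pept-2 and pept-3 always.

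Alternatives were other normalizations, DESeq2 1.42.0, limma 3.58.1 with voom, other filters, each library left out, removal of the length trend within libraries (lowess over log exon length, span 0.3) and a replicate block. Deviations from the group means correlated at 0.344 and 0.268 for samples with the same title number, and at -0.268 and 0.134 with the same library-name number. P-values measure the spread between these samples. With 1 L4 library left they measure the spread of the Day 6 libraries only. Similar members of a family may share reads, and asp-2, asp-4, asp-10 and cpz-2 overlap exons of another gene on the opposite strand; neither effect was tested. Sequences of promoters and proteins were not used here.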

Additional observations from a re-analysis of the deposited data

How the results depend on the processing

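The 14 lower and 2 higher members were 8 and 1 with library size scaling, and 9 and 1 with the replicate block under either numbering; with the replicate block and the length trend removed they were 12 and 2 (title numbers) or 10 and 2 (library-name numbers). Leaving out 1 library gave 6 to 25 lower and 1 to 3 higher members. Over all genes, the 1829 higher and 1600 lower calls became 153 and 175 with library size scaling and 2296 and 2763 with DESeq2. The replicate block gave 817 and 645 or 412 and 359. With the length trend removed as well it gave 1308 and 895 or 748 and 482. Without a Day 6 replicate the calls were 240 to 484 and 298 to 502. Higher genes were 53.3% of all calls, and 42.9% with upper-quartile scaling. The median log2 fold change over all genes was 0.08, -0.14 with median-ratio, -0.22 with upper-quartile, 0.46 with library size scaling and 1.05 without L4 replicate 2.

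No called member changed direction in any alternative. Of the 16 not called, 7 did in some. Leaving out 1 library gave log2 fold changes from -0.36 (L4 replicate 2) to 1.62 (L4 replicate 1) for asp-12, from -1.61 (L4 replicate 2) to 1.23 (L4 replicate 1) for asp-6, from -0.85 (L4 replicate 2) to 0.32 (L4 replicate 1) for cpr-3, from -0.88 (L4 replicate 1) to 0.31 (L4 replicate 2) for cpz-2, from -2.37 (L4 replicate 2) to 0.50 (L4 replicate 1) for lmp-1 and from -0.49 (L4 replicate 1) to 0.83 (L4 replicate 2) for pcp-5, which was at 0.19 without Day 6 replicate 3. asp-12 was at -0.051 with median-ratio scaling, -0.0379 with upper-quartile scaling, -0.0616 with DESeq2 and -0.0516 without Day 6 replicate 1. With library size scaling asp-6 was at 0.65, cpr-3 at 0.48 and pcp-5 at 0.046. With the length trend removed and without L4 replicate 1, asp-6 was at 1.37, cpr-3 at 0.40, lmp-1 at 0.61 and nuc-1 at 0.0447. pcp-5 was also at 0.0788 with no filter, 0.36 with the replicate block by title numbers and 0.20 with that block and the length trend removed. The cause was not tested. Of the 7 untested members, 3 had no count and 4 had 1 to 14, so no change could be tested at this depth.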
